A study of Mus musculus with 7 samples.

Results

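The 8 genes described here encode survival signals that pass between the sensory epithelium of the cochlea and the neurons of the spiral ganglion, together with their receptors. They are the neurotrophins Bdnf and Ntf3, the Trk receptors Ntrk2 and Ntrk3, the low-affinity neurotrophin receptor Ngfr (p75), and the GDNF family receptor genes Ret, Gfra1 and Gfra2. They were taken by gene name from a count table of 54532 mouse genes, and all 8 were found and passed the filter on low counts. The libraries were made from total RNA of cochlear epithelium at embryonic day 16, with 4 libraries from Brg1 knockout and 3 from control, and both groups are labelled untreated. Brg1 is the ATPase of the BAF chromatin remodelling complex and is encoded by Smarca4. The strain, the Cre driver, the deleted exons, the genotype of the controls beyond that word and the number of embryos in a library are not stated by the labels.

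In the developing cochlea, hair cells are known as a source of Bdnf and supporting cells as a source of Ntf3, while spiral ganglion neurons carry the receptors TrkB (Ntrk2) and TrkC (Ntrk3). Binding of a neurotrophin activates the kinase of its Trk receptor, which recruits Shc and Gab adaptors and promotes survival of the neuron and its fibre. p75 binds all neurotrophins and their precursors, lacks a kinase, and is also a known marker of immature Schwann cells. GDNF family ligands bind GPI-anchored co-receptors, GDNF preferring Gfra1 and neurturin preferring Gfra2, and the complex activates the kinase Ret.

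The series-wide values that bear on these genes are few. Library totals lay between 16098269 and 18872132 counts. The targeted gene Smarca4 was at 228 to 281 CPM, counts scaled to library size, in the knockout libraries and 356 to 376 in control, 67.8% of the control mean (log2 fold change -0.56 ± 0.09 SE, edgeR adjusted p = 0.00338). The deposited values fall into 2 batches that no label records: knockout replicates 1 to 3 with control replicates 1 and 2, the larger batch, and knockout replicate 4 with control replicate 3. The epithelial marker Epcam was at 388 to 480 CPM in knockout and 304 to 383 in control, and the prosensory marker Sox2 at 71.2 to 93.1 and 97.6 to 116. Neuron, glia and mesenchyme markers were also measured in every library. In such bulk RNA, fewer cells of a type and less RNA per cell cannot be told apart.

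Ntf3, Ngfr and Gfra1 were lower in the knockout libraries, and no other gene of the 8 passed the test. Ngfr fell to 30.4% of its control mean, Gfra1 to 60.1% and Ntf3 to 62.2%. A gene was called when its Benjamini-Hochberg adjusted p, over all 17341 genes tested with edgeR's quasi-likelihood test, lay below 0.05. By that rule 3 of the 8 were lower, against 4.87% of all tested genes, and 0 of 8 were higher, against 1.94%. DESeq2 (6.44% of all genes lower, 2.87% higher) and limma voom (5.16% and 1.81%) also gave 3 and 0. All 8 log2 fold changes were below 0, with a median of -0.44, while the median over all tested genes was 0.02 and 46.8% of them were below 0. The 8 genes were picked with results of these data known, so these counts are a description and not a test of the list.

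**Figure D1:**
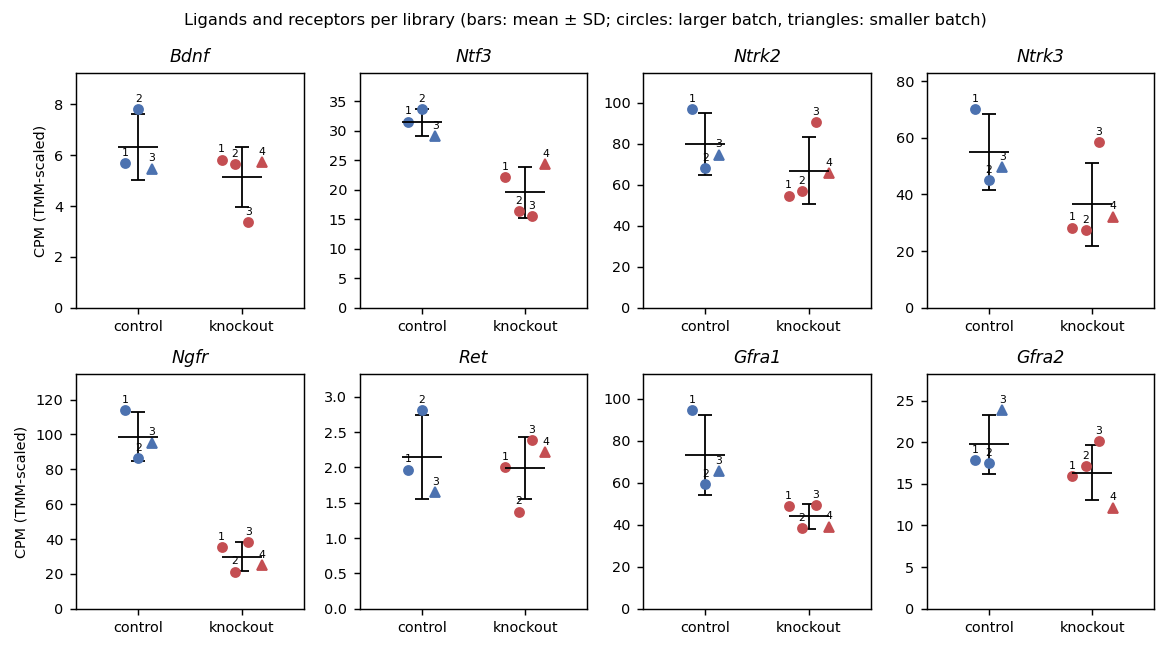
TMM-scaled CPM (y axis, linear from 0) of the 8 genes in 3 control and 4 knockout libraries. Each point is a library labelled with its replicate number, circles the larger and triangles the smaller batch, and bars are the mean ± SD. Knockout points lie below every control point for Ntf3, Ngfr and Gfra1, and knockout replicate 3 stands apart from the other knockout libraries for Bdnf (3.38 CPM) and Ntrk3 (58.4 CPM).

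The sequences before annotated starts of the genes that fell are shown because these 3 genes were lower in the same libraries, and a remodeller of chromatin was the gene targeted. Each is the 250 bases before an annotated start, 5′ to 3′ on the gene's strand, from RefSeq on GRCm38.p6. Capitals mark E-boxes, CANNTG, a pattern read by basic helix-loop-helix factors that is its own reverse complement, so both strands were searched at once. Ntf3 has 2 annotated starts, at chr6:126166745-126166994 (window 1) and chr6:126164961-126165210 (window 2). The Ngfr window is chr11:95587699-95587948 and that of Gfra1 is chr19:58455399-58455648, and all 4 lie on the minus strand. The gene bounds of the count table reach further than these starts: the Gfra1 window and the second Ntf3 window lie wholly within the gene as given there, and the Ngfr window and the first Ntf3 window lie partly within it.
Ntf3 window 1: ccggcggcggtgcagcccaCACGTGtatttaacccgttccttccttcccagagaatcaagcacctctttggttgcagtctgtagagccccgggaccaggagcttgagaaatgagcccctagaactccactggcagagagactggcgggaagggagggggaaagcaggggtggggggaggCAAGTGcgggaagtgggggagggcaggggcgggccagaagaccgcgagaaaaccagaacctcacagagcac
Ntf3 window 2: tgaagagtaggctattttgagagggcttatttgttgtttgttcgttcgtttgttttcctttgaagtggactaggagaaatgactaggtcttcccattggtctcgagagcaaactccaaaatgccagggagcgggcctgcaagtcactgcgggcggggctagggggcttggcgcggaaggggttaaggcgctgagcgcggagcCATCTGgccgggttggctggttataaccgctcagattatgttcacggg
Ngfr: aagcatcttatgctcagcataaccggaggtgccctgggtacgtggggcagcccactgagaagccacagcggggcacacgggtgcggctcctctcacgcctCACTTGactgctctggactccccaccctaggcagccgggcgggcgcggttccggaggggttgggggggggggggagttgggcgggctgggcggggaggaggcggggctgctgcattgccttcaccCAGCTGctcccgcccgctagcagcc
Gfra1: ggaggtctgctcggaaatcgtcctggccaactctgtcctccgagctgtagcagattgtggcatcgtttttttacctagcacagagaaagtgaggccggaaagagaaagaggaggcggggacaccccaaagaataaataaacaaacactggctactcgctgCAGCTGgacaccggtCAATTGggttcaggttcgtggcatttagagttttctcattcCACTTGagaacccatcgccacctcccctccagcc

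The first Ntf3 window held 2 E-boxes, CACGTG with its first base 231 bases before the start and CAAGTG at 71, and the second held CATCTG at 48. The Ngfr window held CACTTG at 150 and CAGCTG at 25. The Gfra1 window held 3, CAGCTG at 90, CAATTG at 75 and CACTTG at 34. Such boxes are common: 66.2% of the 32851 promoter windows of this length held at least 1, 31.8% held 2 or more and 12.2% held 3 or more. A match of letters is a description and not a binding site. The promoter table matched 5 of the 8 genes, Bdnf, Ntf3, Ntrk2, Ngfr and Gfra1. Ntrk3, Ret and Gfra2 are named only.

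Of the ligands, Ntf3 fell and Bdnf did not pass the test. Ntf3 (ENSMUSG00000049107, chr6:126101412-126166910, minus strand, mm10) encodes neurotrophin 3, the ligand of TrkC. Its level was 22.1, 16.3, 15.5 and 24.3 CPM across the knockout libraries, taken in the order of their replicate numbers here and below, against 31.5, 33.6 and 29.1 CPM in the controls. Every knockout library lay below every control library, as for 11.4% of tested genes, with knockout replicate 4 nearest to them. Knockout averaged 19.6 ± 4.31 CPM (SD, n = 4) and control 31.4 ± 2.29 CPM (SD, n = 3), a log2 fold change of -0.68 ± 0.15 (SE, edgeR adjusted p = 0.0221). In the larger batch alone the value was -0.86 (edgeR adjusted p = 0.0247, background 2.49% of genes lower). In the smaller batch, with 1 library a group, the log2 ratio of CPM values was -0.26. The call was lost without knockout replicate 2 (edgeR adjusted p = 0.0532), without control replicate 1 (0.0718) and without control replicate 2 (0.0661).

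Bdnf (ENSMUSG00000048482, chr2:109674700-109727007, plus strand), the ligand of TrkB, was expressed at a low level. It was at 5.82, 5.66, 3.38 and 5.72 CPM in the knockout libraries and at 5.68, 7.81 and 5.47 in control. The groups overlapped, and knockout replicate 3 was the lowest of all 7 libraries. The log2 fold change was -0.29 ± 0.23 (SE, edgeR adjusted p = 0.513), with a 95% interval of -0.79 to 0.21, and -0.14 without knockout replicate 3.

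The Trk receptors of these ligands did not pass the test. Ntrk3 (ENSMUSG00000059146, chr7:78175959-78738012, minus strand), the receptor of neurotrophin 3, was at 28.3, 27.4, 58.4 and 32.2 CPM in knockout and 70.2, 45.0 and 49.6 in control. Knockout replicates 1, 2 and 4 lay below all control libraries, and knockout replicate 3 lay within the control range. The log2 fold change was -0.59 ± 0.31 (SE, edgeR adjusted p = 0.330), with a 95% interval of -1.31 to 0.14. Without knockout replicate 3 it was -0.91 and was called (edgeR adjusted p = 0.0113, background 4.38% of genes lower). Within the larger batch, which holds that library, it was -0.61 (edgeR adjusted p = 0.592). The log2 CPM ratio in the smaller batch was -0.62.

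Ntrk2 (ENSMUSG00000055254, chr13:58806569-59133970, plus strand), the receptor of Bdnf, was at 54.7, 56.8, 90.4 and 65.7 CPM in knockout and 96.9, 68.0 and 74.6 in control. As for Ntrk3, knockout replicates 1, 2 and 4 lay below every control library and knockout replicate 3 among them. The log2 fold change was -0.26 ± 0.19 (SE, edgeR adjusted p = 0.488), with a 95% interval of -0.68 to 0.17, and -0.44 without knockout replicate 3 (edgeR adjusted p = 0.106). Ntrk2 and Ntrk3 are known to be made both as full-length kinases and as truncated forms without the kinase. GENCODE M21 lists complete coding sequences of 466 to 821 codons for Ntrk2 and of 612 to 864 codons for Ntrk3, and gene-level counts cannot separate them. Ntrk3 also overlaps Gm9885 on the opposite strand, named after its values were seen, at a mean of 2.84 CPM. No source used here says whether reads were counted by strand.

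Ngfr had the lowest log2 fold change of the 8 genes. Ngfr (ENSMUSG00000000120, chr11:95568818-95587735, minus strand), the p75 receptor, was at 35.5, 21.4, 38.1 and 24.9 CPM in knockout and at 114, 86.6 and 95.4 CPM in control. The groups were far apart: the highest knockout value lay below the lowest control value by more than the span of the knockout group. Its means were 30.0 ± 8.08 CPM (SD, n = 4) and 98.7 ± 14.0 CPM (SD, n = 3), a log2 fold change of -1.72 ± 0.20 (SE, edgeR adjusted p = 0.00164). In the larger batch it was -1.67 (edgeR adjusted p = 0.0291), and the log2 CPM ratio in the smaller batch was -1.94. The call held under each of the 15 alternative settings tried.

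**Figure D2:**
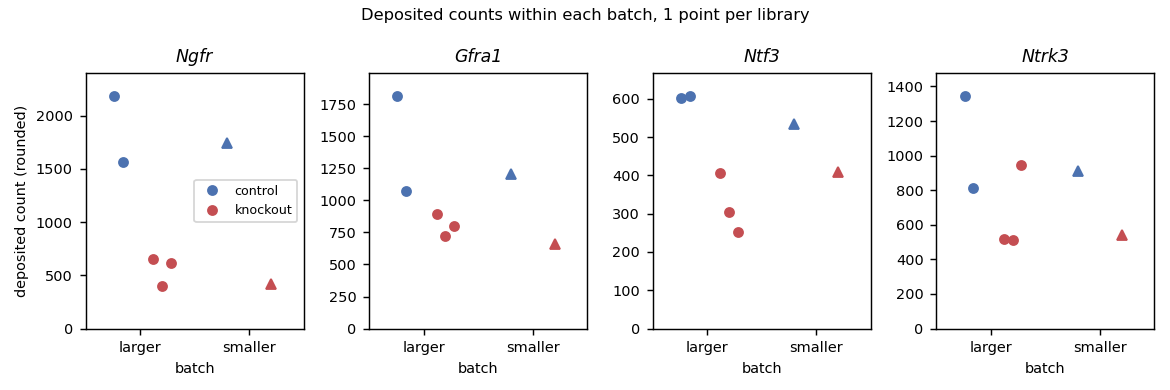
Deposited counts, rounded to whole numbers (y axis, linear from 0), of Ngfr, Gfra1, Ntf3 and Ntrk3 in the larger batch (circles) and the smaller batch (triangles), 1 point per library. For Ngfr the knockout counts of 399 to 651 lie below the control counts of 1561 to 2182 in both batches, and for Ntrk3 the larger batch holds 1 knockout library, at 946, above a control library at 810.

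Of the GDNF family receptors, Gfra1 fell. Gfra1 (ENSMUSG00000025089, chr19:58235604-58455909, minus strand), the co-receptor that GDNF prefers, was at 48.9, 38.5, 49.4 and 39.2 CPM in knockout and 94.7, 59.4 and 65.7 in control. The groups did not overlap, and control replicate 1 was well above the other 2 control libraries. The means were 44.0 ± 5.95 CPM (SD, n = 4) and 73.2 ± 18.8 CPM (SD, n = 3). Its log2 fold change was -0.74 ± 0.16 (SE, edgeR adjusted p = 0.0242), and without control replicate 1 it was -0.51 and not called (edgeR adjusted p = 0.0570). The call was also lost without knockout replicate 2 (edgeR adjusted p = 0.0612), without knockout replicate 4 (0.0757) and in the larger batch alone (-0.76, edgeR adjusted p = 0.110). In the smaller batch the log2 CPM ratio was -0.75.

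Gfra2 (ENSMUSG00000022103, chr14:70890120-70979838, plus strand), the co-receptor that neurturin prefers, was at 15.9, 17.1, 20.1 and 12.1 CPM in knockout and 17.9, 17.5 and 23.9 in control. The groups overlapped, and the batches gave different values. The log2 fold change was 0.00 in the larger batch, and the log2 CPM ratio was -0.98 in the smaller. Over all libraries it was -0.27 ± 0.17 (SE, edgeR adjusted p = 0.411), with a 95% interval of -0.65 to 0.11.

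Ret (ENSMUSG00000030110, chr6:118151745-118197718, minus strand), the kinase that both co-receptors use, was near the lower end of what was measured. It had 37, 26, 39 and 37 deposited counts in the knockout libraries and 38, 51 and 30 in control, which is 1.37 to 2.38 CPM and 1.66 to 2.81 CPM. The groups overlapped and the log2 fold change was -0.11 ± 0.29 (SE, edgeR adjusted p = 0.880). The interval of -0.75 to 0.53 includes a fall as large as that of Gfra1.

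**Figure D3:**
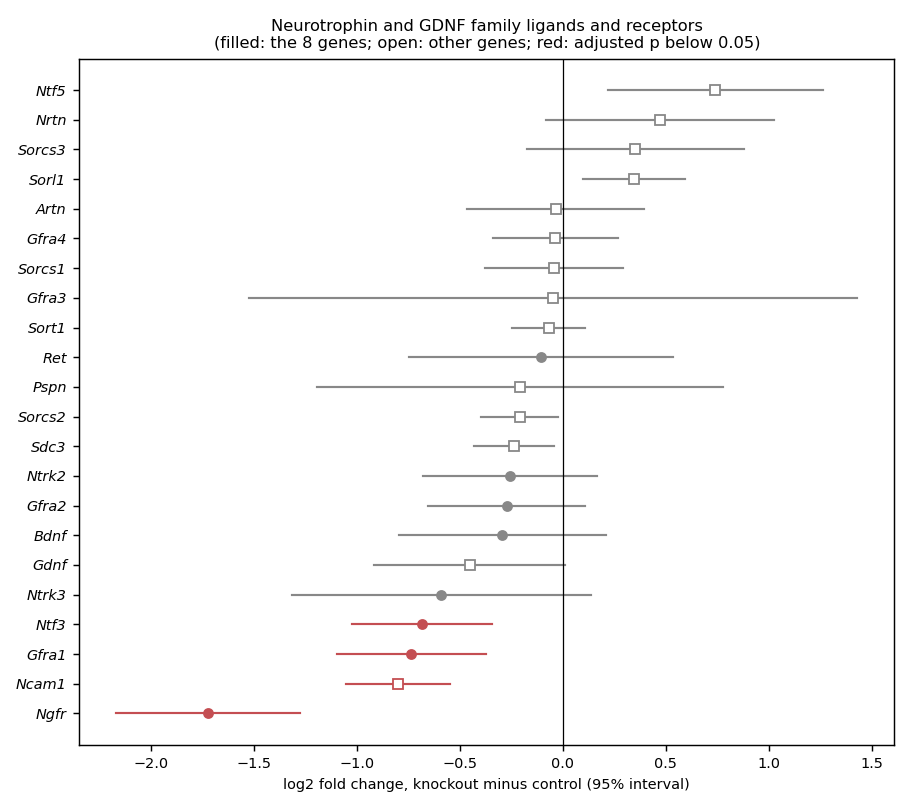
Log2 fold change, knockout minus control, with its 95% interval (x axis) for the 8 genes (filled circles) and other tested ligands and receptors of both families (open squares), ordered by value. Red marks adjusted p below 0.05: Ngfr, Ncam1, Gfra1 and Ntf3, all to the left of 0.

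Levels were compared between genes per length of transcript, as FPKM. In control the order was Ngfr at 28.0 ± 4.31 FPKM, Ntf3 at 17.9 ± 1.43, Gfra1 at 13.1 ± 3.55, Gfra2 at 5.43 ± 0.913, Ntrk2 at 4.05 ± 0.819, Ntrk3 at 1.78 ± 0.459, Bdnf at 0.993 ± 0.205 and Ret at 0.311 ± 0.0891 (SD, n = 3). The ranges of Ntf3 and Gfra1 overlapped, as did those of Gfra2 and Ntrk2, and every other pair of neighbours was apart. In knockout Ntf3 came first at 11.1 ± 2.36 FPKM and Ngfr second at 8.45 ± 2.32 (SD, n = 4). Their ranges overlapped, and in knockout replicate 3 Ngfr (10.7 FPKM) lay above Ntf3 (8.77 FPKM). The remaining 6 kept their order. The FPKM values divide by a gene length of 19292 bases for Ntrk2 and 30170 for Ntrk3, so their FPKM would be higher if shorter forms were the ones present.

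Ligand and receptor were then set against each other within each library. The FPKM ratio of Ntf3 to its receptor Ntrk3 was 13.7, 10.5, 4.67 and 13.3 in knockout and 7.91, 13.2 and 10.3 in control. The groups overlapped, and knockout replicate 3 was the lowest. The log2 ratio of their CPM values differed by -0.07 between knockout and control (exact two-sided permutation p = 1, with 35 arrangements of the labels). For Bdnf and Ntrk2 the difference was -0.02 (exact two-sided permutation p = 0.971).

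The same ligands were set against p75, to which both bind. The FPKM ratio of Ntf3 to Ngfr was 1.25, 1.54, 0.818 and 1.96 in knockout and 0.556, 0.781 and 0.613 in control. Its groups did not overlap, while those of Bdnf to Ngfr did, with knockout replicate 3 at 0.0494 and control replicate 2 at 0.0501. The log2 difference was 1.04 for Ntf3 and Ngfr and 1.45 for Bdnf and Ngfr (each exact two-sided permutation p = 0.0571, adjusted over the 4 pairs 0.114). Neither passed the test, and the smallest p these groups allow is 0.0286.

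**Figure D4:**
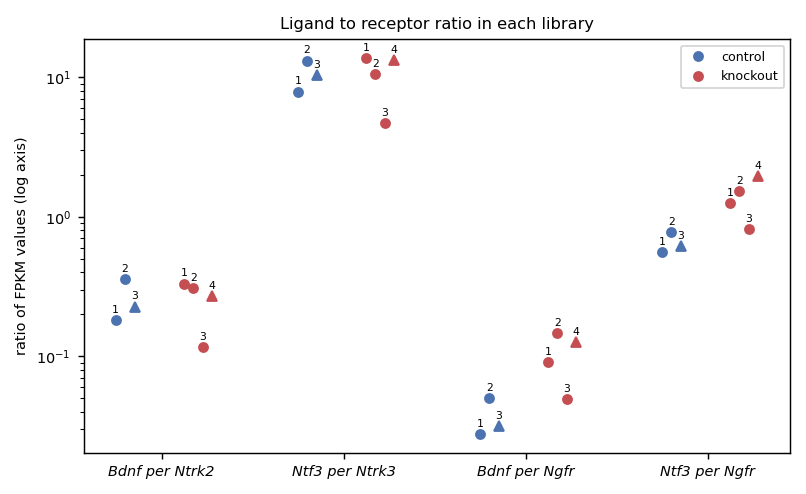
FPKM ratio of each ligand to a receptor (y axis, log scale) in each library, labelled with its replicate number, blue for control and red for knockout, circles and triangles for the larger and smaller batch. The ratio of Ntf3 to Ngfr is 0.818 to 1.96 in knockout and 0.556 to 0.781 in control. The ratio of Bdnf to Ngfr and the ratios to Ntrk2 and Ntrk3 overlap between groups.

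Markers of the cells that carry these receptors moved in the same libraries. The summed level of 21 spiral ganglion neuron markers was 709 to 1115 CPM in knockout and 2355 to 2642 CPM in control, with 15 lower by edgeR and a median log2 fold change of -1.46. That of 14 Schwann and satellite glia markers was 787 to 1051 CPM and 1557 to 1740 CPM, with 4 lower and a median of -0.44. For these and the lists below, 4.87% of all tested genes were called lower and 1.94% higher. No marker of either list was at 0 in a library. Summed hair cell markers were at 416 to 461 CPM in knockout and 360 to 387 in control, 3 of 15 higher, and those of supporting and prosensory cells at 1176 to 1304 and 1280 to 1427, 4 of 14 lower. Otic epithelium (5 of 15), periotic mesenchyme (3 of 14) and endothelium and macrophage markers (2 of 14) gave only higher calls by edgeR. In the larger batch the higher calls of these lists were 3, 0 and 0 (1.25% of all genes). Without knockout replicate 3 they were 5, 1 and 1 (1.21%), while hair cell markers had 1 and 2 in these settings. Egr2 and Gfra3 stood in both the glia list and a pathway list. The neuron count was 8 in the larger batch (2.49% of all genes lower) and 13 without knockout replicate 3 (4.38%). It was 8, 8 and 6 without control replicates 1, 2 and 3 (2.54%, 3.57% and 3.42%). The glia count was 1 in the larger batch, 3 without knockout replicate 3 and 1 without knockout replicate 4 (3.92% of all genes lower). It was 2, 2 and 1 without control replicates 1, 2 and 3. The part of these cells in the values of the 8 genes was not tested, and the following differences do not measure it.

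Each gene was taken relative to the mean log2 level of the neuron markers in its own library. That mean was 4.33 to 4.94 in the knockout libraries and 5.83 to 6.02 in control. A gene with no change of its own therefore comes out higher relative to it. Ngfr was 0.40 lower on the log2 scale, relative to those markers, in knockout than in control (a difference of -0.40, exact two-sided permutation p = 0.0286). The other 7 genes were higher relative to the neuron markers, from 0.62 for Gfra1 through 0.71 for Ntrk3 and 1.07 for Ntrk2 to 1.25 for Ret. After adjustment over the 8 genes the exact permutation p was 0.0571 or 0.0857 for each, so none passed. Relative to the glia markers, Ngfr differed by -1.06 and Ret by 0.60 (each exact two-sided permutation p = 0.0286, adjusted 0.114). The other 6 genes lay between -0.03 and 0.41 relative to the glia markers and did not pass either. The glia mean was lower in knockout too, at 3.97 to 4.67 against 5.08 to 5.18 in control.

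**Figure D5:**
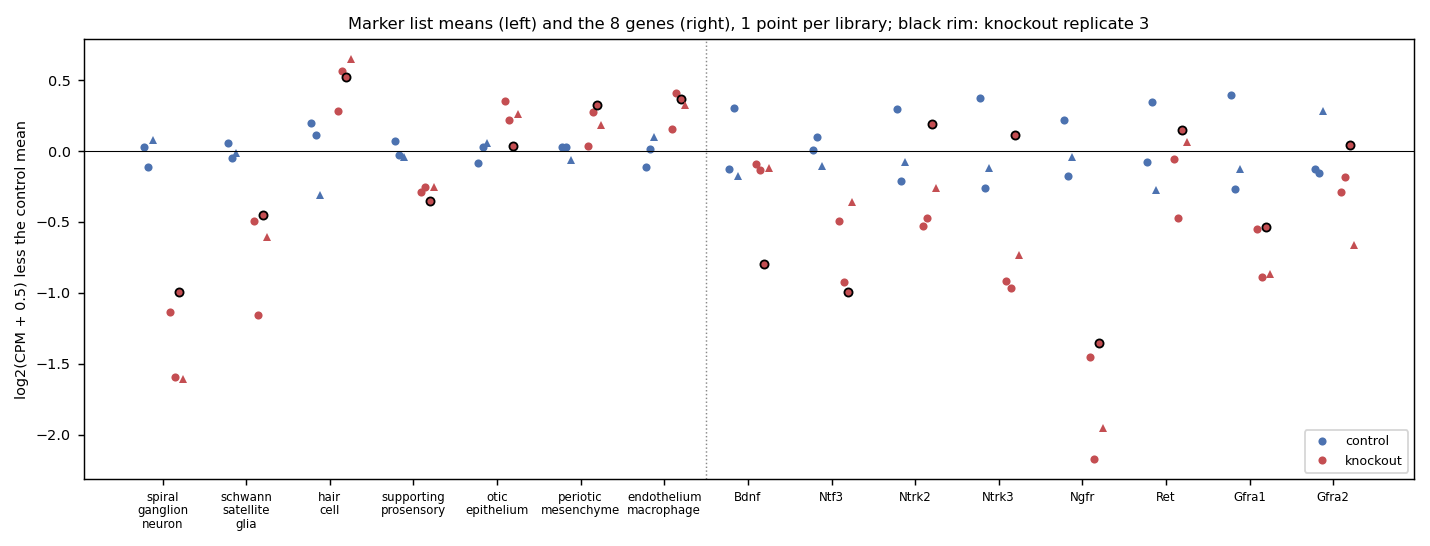
Mean log2(CPM + 0.5) of each marker list (left of the dotted line) and log2(CPM + 0.5) of the 8 genes (right), less the control mean (y axis), 1 point per library, blue control and red knockout, with triangles for the smaller batch and a black rim on knockout replicate 3. Knockout points for the neuron, glia and supporting and prosensory lists, Ntf3, Ngfr and Gfra1 all lie below the control points. Those of the hair cell, periotic mesenchyme, and endothelium and macrophage lists all lie above them, for mesenchyme by a narrow gap. The otic epithelium list overlaps between groups.

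The rest of both pathways was followed in 8 lists with 84 further genes, of which 78 were tested. Of these, 13 were lower and 2 higher, where 4.87% and 1.94% of all tested genes were called, and their median log2 fold change was -0.07. In the larger batch 4 were lower and 2 higher (2.49% and 1.25% of all genes), and without knockout replicate 3 there were 8 and 1 (4.38% and 1.21%).

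Among the other ligands tested, none passed. Ntf5, which encodes neurotrophin 4, a second ligand of TrkB, was at 2.60 to 3.49 CPM in knockout and 1.62 to 2.10 in control (log2 fold change 0.74 ± 0.24 SE, edgeR adjusted p = 0.0934). It was chosen after its values were seen, as a ligand whose groups did not overlap, which held for 9.30% of tested genes in that direction. The 4 GDNF family ligands gave no call by edgeR, DESeq2 or limma voom, nor at an unadjusted p below 0.05: Gdnf was at a log2 fold change of -0.45, Nrtn (neurturin) at 0.47, Artn (artemin) at -0.03 and Pspn (persephin) at -0.21. The Gdnf groups did not overlap either, at 2.26 to 2.67 CPM in knockout and 3.03 to 3.72 in control. That held for 11.4% of tested genes in the lower direction.

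Among the other receptors of the GDNF family, Ncam1 fell. Ncam1, a neural adhesion molecule that can serve as a GDNF receptor with Gfra1, averaged 47.2 ± 7.33 CPM in knockout (SD, n = 4) against 82.2 ± 3.29 CPM for control (SD, n = 3), a log2 fold change of -0.80 (edgeR adjusted p = 0.00209). Sort1, the sortilin co-receptor that p75 uses for neurotrophin precursors, was at -0.07 ± 0.08 (SE, edgeR adjusted p = 0.694), chosen after its values were seen. In all, 2 of the 7 receptors listed for the GDNF family were lower, Gfra1 and Ncam1 (4.87% of all tested genes). These 7 are not all Ret or Gfra genes. None of them was higher by edgeR, DESeq2 or limma voom or at an unadjusted p below 0.05.

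Of 26 tested adaptors of Trk and Ret, 4 were lower and 1 was higher (all tested genes 4.87% and 1.94%), and in the larger batch 1 was lower and 1 higher. Shc2, an adaptor found in neurons, was at 56.4 CPM in knockout and 96.4 in control (log2 fold change -0.77 ± 0.11 SE, edgeR adjusted p = 0.00228). Grb7, an SH2 adaptor that can bind Ret, rose from 27.3 to 38.8 CPM (0.51 ± 0.09 SE, edgeR adjusted p = 0.00701). The docking protein gene Gab2 fell by 0.68, the adaptor gene Sh2b2 fell by 0.62 and Kidins220, a scaffold of Trk receptors, fell by 0.44 on the log2 scale. The median of the adaptors was -0.06.

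Of 16 tested partners of p75, 2 were lower (4.87% of all tested genes), and 1 in the larger batch. Mapk10, which encodes the neuronal JNK3 kinase, was at 8.18 CPM in knockout and 19.5 in control (log2 fold change -1.25 ± 0.18 SE, edgeR adjusted p = 0.00215). Lingo1, a co-receptor of p75, fell by 0.67 on the log2 scale (edgeR adjusted p = 0.0221). Of 8 tested genes of neurotrophin precursor processing, 2 were lower (4.87% of all tested genes), and 0 in the larger batch. Pcsk2 (prohormone convertase 2) fell by 0.90 and Cpe (carboxypeptidase E) by 0.41. Furin was at -0.28 (edgeR adjusted p = 0.194), the latter chosen after its values were seen. Of 13 tested genes that respond to neurotrophins, 3 were lower and 1 higher (all tested genes 4.87% and 1.94%), and 0 in the larger batch. Dusp6, a phosphatase that acts on ERK, fell by 0.37 (edgeR adjusted p = 0.0439). The other 3 calls were outside the limit of 12 named genes, Egr2 at -1.05, Vgf at -1.44 and Lrig3 at 0.39 (edgeR adjusted p = 0.0457, 0.0471 and 0.0484).

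The calls of Ncam1, Mapk10, Shc2 and Grb7 held under all 15 alternative settings. Gab2 was lost without control replicate 1 (edgeR adjusted p = 0.0538) and Sh2b2 without control replicate 2 (0.0530). Pcsk2 was lost on leaving out knockout replicate 4 (0.0636) or any control, replicate 1 (0.0712), replicate 2 (0.0604) or replicate 3 (0.0519). Lingo1 was lost on leaving out knockout replicate 1 (0.0513), knockout replicate 2 (0.0606), control replicate 1 (0.0900) or control replicate 3 (0.0815). Cpe was lost on leaving out knockout replicate 2 (0.0753), knockout replicate 3 (0.0757), control replicate 1 (0.106) or control replicate 3 (0.0889). Kidins220 was lost on leaving out knockout replicate 2 (0.0885), knockout replicate 3 (0.0509), knockout replicate 4 (0.0845), control replicate 1 (0.146) or control replicate 3 (0.0542). Dusp6 was lost without each library but knockout replicate 1, with adjusted p up to 0.129. All 7 of these were also lost in the larger batch, with adjusted p from 0.0516 to 0.137. With batch as a covariate Kidins220 (0.0505) and Dusp6 (0.0565) were lost, and Dusp6 also by limma voom (0.0504).

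Profiles closest to each gene that fell were found over the 7 libraries among 13862 protein-coding genes with a mean of 1 CPM or more, by the root mean square difference of centred log2 values. Ngfr was nearest to Crmp1 (difference 0.0768), which encodes a protein of growing axons and was at a log2 fold change of -1.66. A fold change close to that of the member follows from this way of choosing, which used both groups. Gfra1 was nearest to Gab2 (0.0782) and to Xpr1 (0.0885), a phosphate exporter gene at -0.62. Ntf3 was nearest to Tmem198 (0.0958) and Glipr2 (0.113), neither of which passed the test (edgeR adjusted p = 0.160 and 0.0569).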

How the data were processed

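The count table deposited by the authors holds estimated counts: whole counts to which 1 shift for each gene in each batch had been applied, as read from the fractions of the values, so batches come from the values and not from labels. They were rounded to whole numbers, and the test planned for raw counts was kept. The shifts use up freedom that the 5 residual degrees of freedom do not subtract, so p-values may be too small. The deposited FPKM values carry the same adjustment and were used only for levels between genes and ratios. Per the submitters' processing notes, which give no roles, the build was mm10 and the tools included HISAT2 2.0.5 and featureCounts 1.5.0-p3.

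Genes were fitted with edgeR 4.0.16 in R 4.3.3 (TMM, filterByExpr, robust quasi-likelihood, knockout minus control, no covariate) and checked on simulated data. Standard errors come from the F statistic. Alternatives used limma 3.58.1 and DESeq2 1.42.0, RLE factors, no filter, batch, replicate blocks, and each library left out. Single differences used log2(CPM + 0.5) and exact permutation. The floor of 3 counts and the intervals cover counting or replicate error only. Nothing in the labels says that libraries came from separate animals, so p-values measure the spread between these libraries. The members and all lists were chosen with earlier results of these data known. The text names the 8 genes, Smarca4, the 12 pathway genes with the smallest adjusted p among 15 called, and the 2 nearest profiles of each member called. Some genes that this rule names are not reported here.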

Additional observations from a re-analysis of the deposited data

Results flagged for a closer look

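Knockout replicate 3 stood apart from the other 3 knockout libraries for 2 of the 8 genes. For Bdnf it was the lowest, at 3.38 CPM against 5.66 to 5.82 CPM in the others. For Ntrk3 it was the highest, at 58.4 CPM against 27.4 to 32.2 CPM. The gap to the nearest library, divided by the range of the group, was 0.932 and 0.844, above Dixon's critical value for 4 samples. These were 2 of 31 measures examined, and chance flags about 1 in 20. Groups of 3, the controls, were not examined in this way.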

How the results depend on the processing

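The 3 lower members were 1 to 4 when each library was left out in turn, and 0 were higher throughout. Across all genes, 845 were lower, 438 in the larger batch and 450 to 847 with a library left out, and 337 were higher, 517 by DESeq2, 207 with batch as a covariate, 219 in the larger batch and 106 to 348 with a library left out. Pathway genes called lower, 13, were 4 in the larger batch and 5 to 12 with a library left out. Those called higher, 2, were 1 with RLE factors, a batch covariate or limma voom, and 1 to 3 with a library left out. Ret turned above 0 without knockout replicate 2 (0.04) and without control replicate 2 (0.12), in a range of -0.27 to 0.12, and Gfra2 was at 0.0029 in the larger batch. The difference of Bdnf and Ntrk2 turned to 0.0347 with a pseudocount of 2 CPM, to 0.31 without knockout replicate 3 and to 0.24 without control replicate 2 (range -0.23 to 0.31), and that of Ntf3 and Ntrk3 to 0.28 and 0.11 without the same libraries (range -0.25 to 0.28). Relative to glia in place of neuron markers, Ntf3 was at -0.0167 and Gfra1 at -0.0324. Relative to neuron markers on FPKM values, Ntrk2 (1.08), Ngfr (-0.40), Ret (1.27), Gfra1 (0.63) and Gfra2 (1.06) passed (exact permutation adjusted p = 0.0457). Here too a gene with no change of its own comes out higher. In the larger batch Ret was at 0.94 and Gfra1 at 0.48, and Gfra1 ranged from 0.52 to 0.81 with a library left out. The cause of these shifts was not tested.

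Whether the replicate numbers pair the libraries is not stated by the labels. The correlation of same-numbered deviations was -0.10, -0.17 and 0.05 by titles and -0.10, -0.17 and -0.51 by descriptions. The value of -0.51 is from the libraries of the smaller batch. So few libraries cannot settle whether they were paired. With the titles' numbers as a block, 607 genes were lower and 180 higher, with 1 pathway gene higher. With the descriptions' numbers, 536 were lower and 74 higher, with 8 pathway genes lower and 1 higher, Ntf3 was not called (-0.60, edgeR adjusted p = 0.109) and Ntrk3 was (-0.88, edgeR adjusted p = 0.0129). Among the named pathway genes, the titles' block also lost Sh2b2 (edgeR adjusted p = 0.0583), Pcsk2 (0.0581) and Dusp6 (0.0604), and the descriptions' block Sh2b2 (0.1001), Cpe (0.0681) and Dusp6 (0.165).

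Depth limits Bdnf and Ret most, at 55 to 141 and 26 to 51 counts a library.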
